A study of Mus musculus with 4 samples.

Results

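The genes described here are the antioxidant regulator Nfe2l2, which encodes NRF2, its inhibitor gene Keap1, and 8 genes of the NRF2 antioxidant programme (Nqo1, Hmox1, Gclc, Gclm, Txnrd1, Srxn1, Gsr and Prdx1). They were listed by symbol, by a rule that used none of their values, though with earlier results of these data known. All 10 had values, on 18 of the 24393 transcripts and as 10 of the 12967 gene symbols of the study. RNA was recovered from 4T1 cells, a mammary carcinoma line of BALB/c mice, with an antibody against Caprin-1, which binds mRNA and takes part in stress granules, or with IgG as the background control. The cells carried a stable shRNA, either SCR as control (shSCR) or one that targets the ceramide synthase CerS4 (shCerS4), and all were grown with puromycin, so the 4 groups were IgG and Caprin-1 from shSCR cells and IgG and Caprin-1 from shCerS4 cells. Each group was 1 library, and no difference below has a replicate check. The labels gave neither the number of shRNA sequences nor whether a line was 1 clone, and Cers4 had no entry in the deposited values, so the knockdown could not be checked here. None of the 4 libraries was an input.

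NRF2 is a transcription factor whose amount is set mainly after transcription. KEAP1 binds it and presents it to the CUL3 ubiquitin ligase for degradation, and oxidants or electrophiles that modify cysteines of KEAP1 let NRF2 build up. With a small MAF partner, NRF2 then binds antioxidant response elements in genes for quinone reduction, haem breakdown, glutathione synthesis and the thioredoxin system, which tumour cells use to bear oxidative stress.

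Library depths, estimated from the spacing of the values, were 19.7 to 27.0 M reads, and 3 reads corresponded to 0.111 to 0.152 CPM. CPM is the read count scaled to the library total. Each member had at least 187 estimated reads in every library. The epithelial markers Epcam, Cdh1, Krt8, Krt18, Krt7, Krt19 and Cldn4 all had values, with a summed level of 5086 to 10188 CPM. None of 5 leukocyte markers had an entry. Of 3 endothelial markers Kdr alone had one, at 0 to 0.666 CPM, and of 4 fibroblast markers Pdgfra and Lum did, at a summed 19.2 to 59.8 CPM. In such pools of cells, fewer cells with a transcript and less of it per cell cannot be told apart.

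Promoter windows of RefSeq (GRCm38.p6), reaching from 250 bases before a transcription start to 50 after it, were held for 7 of the 10 members, in 9 windows. Both strands were searched for TGACNNNGC, the core letters of the antioxidant response element, and for TGANTCA, the letters of the AP-1 site, which can overlap the first motif. Of all 32851 such windows, 12.4% held TGACNNNGC and 7.81% held TGANTCA. Among the members, 5 held TGACNNNGC in a window (Nfe2l2, Gclm, Txnrd1, Srxn1 and Prdx1) and 2 held TGANTCA (Srxn1 and Prdx1). These counts are per gene, whereas the shares are per window. Txnrd1 had 3 windows, and its match lay only in the second, at chr10:82858956-82859255, inside the annotated gene. The stretches before the first annotated start of 5 members are shown, 4 because they hold a match in the window and Nqo1 because it had the lowest shCerS4 over shSCR ratios of the members, with matched letters in capitals.
Nfe2l2 upstream, chr2:75704664-75704913, minus strand: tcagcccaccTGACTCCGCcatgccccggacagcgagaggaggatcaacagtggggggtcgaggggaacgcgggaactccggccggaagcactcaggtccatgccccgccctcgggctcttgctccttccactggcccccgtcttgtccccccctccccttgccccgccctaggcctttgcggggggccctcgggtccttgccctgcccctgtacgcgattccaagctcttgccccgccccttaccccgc
Gclm upstream, chr3:122245307-122245486, plus strand: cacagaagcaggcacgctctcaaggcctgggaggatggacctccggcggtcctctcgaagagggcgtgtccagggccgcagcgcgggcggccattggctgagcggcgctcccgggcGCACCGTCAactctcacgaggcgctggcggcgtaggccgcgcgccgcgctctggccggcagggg
Srxn1 upstream, chr2:152105274-152105523, plus strand: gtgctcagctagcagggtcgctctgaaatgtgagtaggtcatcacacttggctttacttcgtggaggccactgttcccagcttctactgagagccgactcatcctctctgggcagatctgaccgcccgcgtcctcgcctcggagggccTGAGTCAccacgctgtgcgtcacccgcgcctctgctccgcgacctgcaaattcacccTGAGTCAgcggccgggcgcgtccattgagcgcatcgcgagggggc
Prdx1 upstream, chr4:116685349-116685598, plus strand: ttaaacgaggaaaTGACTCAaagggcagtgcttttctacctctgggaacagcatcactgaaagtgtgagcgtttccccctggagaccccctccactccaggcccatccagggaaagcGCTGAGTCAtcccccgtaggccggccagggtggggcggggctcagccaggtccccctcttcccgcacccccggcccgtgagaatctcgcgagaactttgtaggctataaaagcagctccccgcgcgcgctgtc
Nqo1 upstream, chr8:107403206-107403455, minus strand: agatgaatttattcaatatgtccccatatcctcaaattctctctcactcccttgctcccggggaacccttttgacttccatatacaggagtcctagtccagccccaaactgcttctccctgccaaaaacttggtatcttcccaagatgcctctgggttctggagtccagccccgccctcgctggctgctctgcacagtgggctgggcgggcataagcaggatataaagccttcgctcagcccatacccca
In Nfe2l2 the match began 240 bases before the first annotated start, in Gclm 64 bases before it on the opposite strand, and in Prdx1 133 bases before it on the opposite strand, where it shared bases with a TGANTCA match. Srxn1 held TGANTCA matches 102 and 45 bases before the start. Its TGACNNNGC match began 28 bases after the start on the opposite strand, outside the stretch shown. The Nqo1 and Keap1 windows held neither set of letters, and bases outside the windows were not searched. For Hmox1, Gclc and Gsr no window was held. A match describes letters in this window and is no measure of binding.

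The first question was how the NRF2 genes differed between shCerS4 and shSCR cells, with Caprin-1, which was the comparison the study set out to make, and with IgG. Nqo1 was lower and Hmox1 higher past 2-fold in shCerS4 cells with either precipitate, and the other 8 members lay under 2-fold in both. Past 2-fold means a ratio of 2-fold or more whose 95% counting interval, given in brackets, excludes 0 on the log2 scale. The interval covers counting error between 2 libraries only. Of the 10283 genes that averaged 5 CPM or more and were compared, 6.25% passed 2-fold upward and 4.95% downward with Caprin-1 (643 against 509 genes, and 442 against 637 under trimmed-mean scaling). With IgG the shares were 5.69% and 5.34% (585 against 549, and 424 against 670). Read against these shares, 1 of 10 members in each direction is no result about the list. The median log2 ratio of the members was −0.06 with Caprin-1 and −0.25 with IgG, beside 0.15 and 0.10 for all genes compared.

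**Figure D1:**
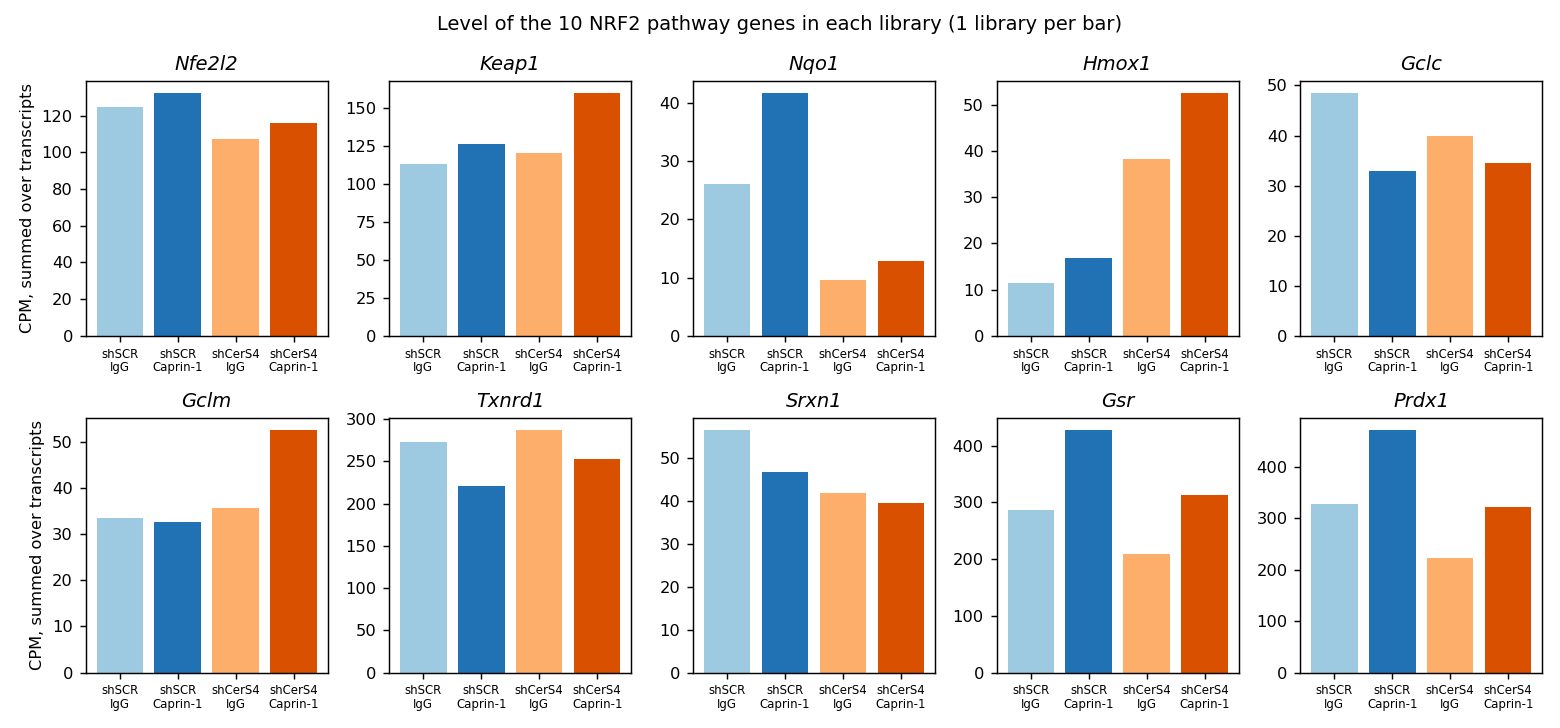
Bars show the level of each of the 10 genes, in CPM summed over its transcripts, in each of the 4 libraries (1 library per bar, each panel with its own axis from 0). Nqo1 is highest in the shSCR Caprin-1 library at 41.6 CPM and Hmox1 in the shCerS4 Caprin-1 library at 52.5 CPM, and Gsr and Prdx1 are higher with Caprin-1 than with IgG in each cell line.

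Nqo1 encodes the quinone reductase NQO1, one of the most widely used readouts of NRF2, at chr8:107388225-107403205 (GRCm38, as all positions here). It stood at 26.1 CPM in shSCR IgG, 41.6 CPM in shSCR Caprin-1, 9.51 CPM in shCerS4 IgG and 12.8 CPM in shCerS4 Caprin-1. Both shCerS4 libraries lay below both shSCR libraries. The shCerS4 over shSCR log2 ratio was −1.70 [−1.88, −1.52] with Caprin-1, a level 3.25-fold lower, and −1.46 [−1.71, −1.21] with IgG, a level 2.74-fold lower. Of all genes compared, 1.4% had a lower ratio with Caprin-1 and 2.4% with IgG.

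Hmox1 encodes heme oxygenase 1, which breaks down haem and is induced by NRF2 once the repressor BACH1 leaves its elements, and lies at chr8:75093618-75100593. Its levels were 11.4 CPM in shSCR IgG, 16.8 CPM in shSCR Caprin-1, 38.2 CPM in shCerS4 IgG and 52.5 CPM in shCerS4 Caprin-1, so both shCerS4 libraries lay above both shSCR libraries. The log2 ratio was 1.64 [1.48, 1.80] with Caprin-1, a level 3.11-fold higher, and 1.74 [1.52, 1.96] with IgG, a level 3.33-fold higher. In the Caprin-1 precipitates 98.5% of genes had a lower ratio than Hmox1. The 2 members past 2-fold thus stood in opposite directions.

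**Figure D2:**
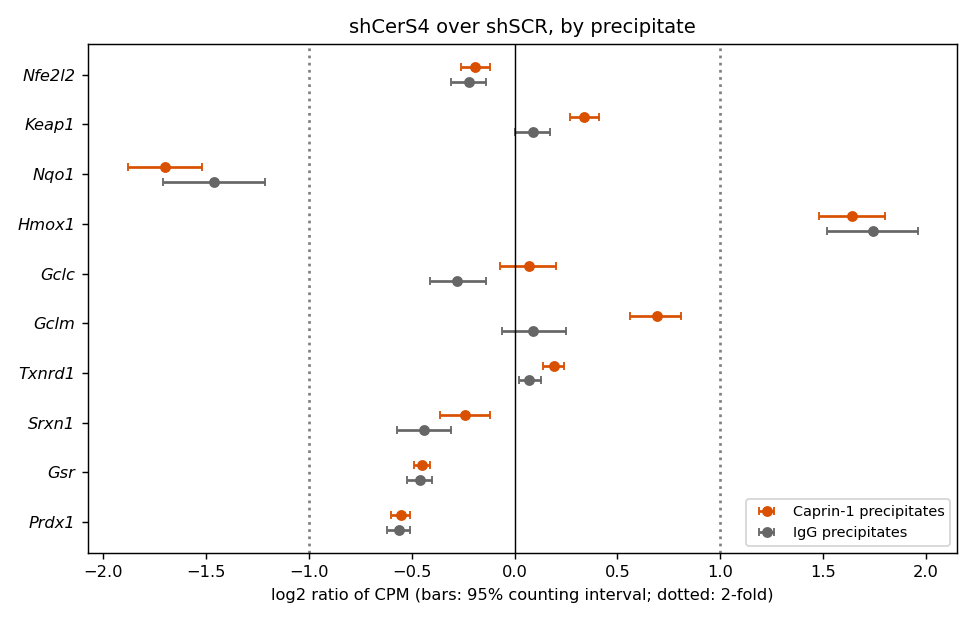
Points show the shCerS4 over shSCR log2 ratio of each gene, separately for the 2 precipitates, bars the 95% counting interval, and dotted lines 2-fold. Nqo1 and Hmox1 lie beyond the lines in both precipitates, and Gclm shows a gap between precipitates, at 0.69 against 0.09.

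Nfe2l2 itself, at chr2:75675513-75704663, stood at 125 CPM in shSCR IgG, 132 CPM in shSCR Caprin-1, 107 CPM in shCerS4 IgG and 116 CPM in shCerS4 Caprin-1. The 4 values lay close together, with both shCerS4 libraries below both shSCR libraries. Its shCerS4 over shSCR log2 ratio was −0.19 [−0.26, −0.12] with Caprin-1 and −0.22 [−0.31, −0.14] with IgG, where 26.5% and 27% of genes had lower ratios. Its Caprin-1 over IgG ratio was 0.08 [0.01, 0.16] in shSCR and 0.11 [0.03, 0.20] in shCerS4 cells. Nearly all of its reads were assigned to 1 of its 2 transcripts, between 98.5% and 99.9% in the 4 libraries. Among 7623 other genes averaging 20 CPM or more, the 5 whose centred log2 levels over the 4 libraries lay nearest to those of Nfe2l2 were Rpa3, Kank3, Mrps9, Rhno1 and Cops5, at distances of 0.0211 to 0.0409 on the log2 scale. With only 4 libraries and so many genes searched, small distances are readily found, so nearness is no sign of a link.

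Keap1, at chr9:21229730-21239332, whose product holds NRF2 in check, stood at 113 CPM in shSCR IgG, 126 CPM in shSCR Caprin-1, 120 CPM in shCerS4 IgG and 160 CPM in shCerS4 Caprin-1. The last library was the highest, and the other 3 lay within a narrow range. The shCerS4 over shSCR log2 ratio was 0.34 [0.27, 0.41] with Caprin-1 and 0.09 [0, 0.17] with IgG, the latter −0.03 under trimmed-mean scaling. The 5 genes nearest in level pattern over the 4 libraries were Psmd5, Rbck1, Ext2, Nudcd2 and Spindoc, at distances of 0.0108 to 0.0523, with the same limit as for Nfe2l2.

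The reads of Keap1 were divided among 4 transcripts, which the deposited values list under the symbol alone. The most abundant stood at 53.1 and 84.1 CPM in IgG and Caprin-1 of shSCR cells and at 66.8 and 105 CPM in those of shCerS4 cells, and took 46.8%, 66.7%, 55.5% and 65.5% of the gene's CPM. Its Caprin-1 over IgG log2 ratio was 0.66 [0.56, 0.77] in shSCR and 0.65 [0.55, 0.74] in shCerS4 cells. In that order of libraries, the second stood at 23.0, 24.1, 12.2 and 30.1 CPM and the third at 30.7, 12.8, 22.6 and 20.7 CPM. The fourth stood at 6.57, 5.16, 18.7 and 4.37 CPM, and was thus highest in the shCerS4 IgG library. The Caprin-1 over IgG ratio of Keap1 as a whole differed between cell lines by 0.25 [0.15, 0.36], whereas that of its most abundant transcript differed by −0.02 [−0.16, 0.12]. Reads that fit several transcripts were shared among them before deposit, and the intervals hold no error from that division.

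**Figure D3:**
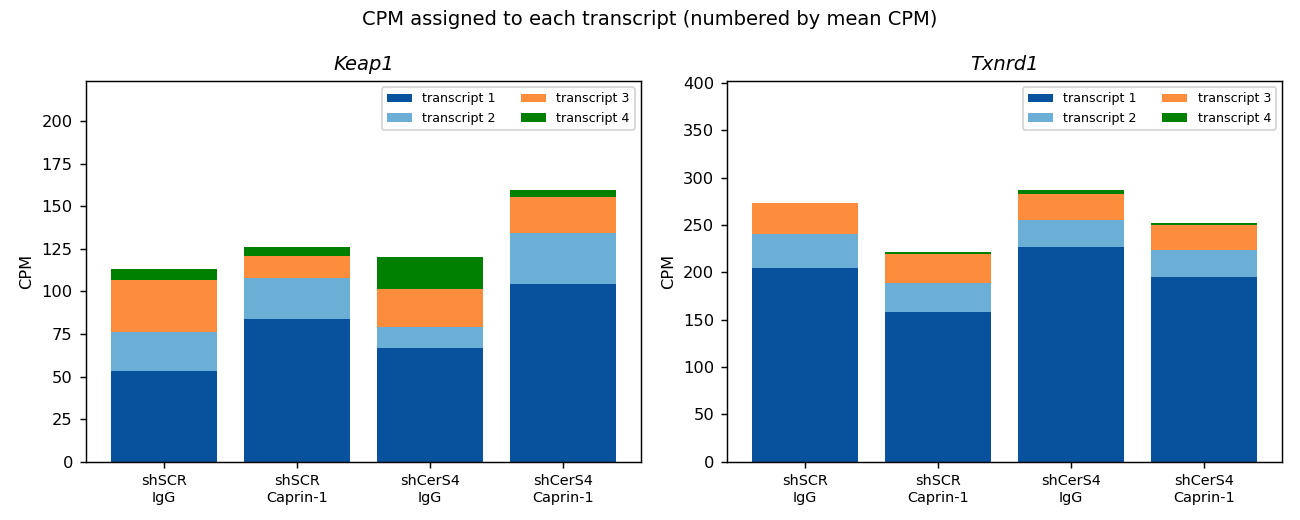
Stacked bars show the CPM assigned to each of the 4 transcripts of Keap1 and of Txnrd1 in each library, numbered by mean CPM. For Keap1 the fourth transcript is largest in the shCerS4 IgG library at 18.7 CPM, and for Txnrd1 the first holds most of the level in each library.

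Glutathione synthesis starts with glutamate-cysteine ligase, made of a catalytic subunit (Gclc) and a modifier subunit (Gclm), and oxidised glutathione is returned to its reduced form by glutathione reductase (Gsr). Gclc lies at chr9:77754535-77794489, Gclm at chr3:122245487-122267215 and Gsr at chr8:33653238-33698162. Gclm stood at 33.5 CPM in shSCR IgG, 32.6 CPM in shSCR Caprin-1, 35.8 CPM in shCerS4 IgG and 52.6 CPM in shCerS4 Caprin-1. The shCerS4 Caprin-1 library thus stood above the other 3, which were close to each other. Its shCerS4 over shSCR log2 ratio was 0.69 [0.56, 0.81] with Caprin-1, under 2-fold, and 0.09 [−0.06, 0.25] with IgG. Gclc stood at 48.5, 33.0, 40.0 and 34.5 CPM in the same order of libraries, with the Caprin-1 libraries below the IgG libraries. Its ratio was 0.07 [−0.07, 0.20] with Caprin-1, below 0 under 3 of the other scalings, and −0.28 [−0.41, −0.14] with IgG. Its second transcript had under 1 read in 3 libraries and 34.1 estimated reads in shCerS4 Caprin-1. Gsr stood at 287, 428, 209 and 313 CPM, with ratios of −0.45 [−0.49, −0.41] and −0.46 [−0.52, −0.40], so each precipitate gave a lower value in shCerS4 cells.

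In the thioredoxin system, thioredoxin reductase 1 (Txnrd1) passes electrons from NADPH to thioredoxin, peroxiredoxin 1 (Prdx1) removes peroxides, and sulfiredoxin 1 (Srxn1) repairs over-oxidised peroxiredoxins. Txnrd1 lies at chr10:82833951-82897724, Prdx1 at chr4:116685599-116700000 and Srxn1 at chr2:152105524-152111376. Prdx1 stood at 328 CPM in shSCR IgG, 472 CPM in shSCR Caprin-1, 222 CPM in shCerS4 IgG and 321 CPM in shCerS4 Caprin-1. Its shCerS4 over shSCR log2 ratio was −0.55 [−0.60, −0.51] with Caprin-1 and −0.56 [−0.62, −0.51] with IgG, close to those of Gsr. RefSeq lists 1 gene named as a pseudogene of Prdx1, with which reads may be shared. Srxn1 stood at 56.7, 46.8, 41.8 and 39.6 CPM, with ratios of −0.24 [−0.36, −0.12] and −0.44 [−0.57, −0.31]. Txnrd1 stood at 273, 221, 287 and 252 CPM, and its ratios were 0.19 [0.14, 0.24] and 0.07 [0.02, 0.13], the latter −0.04 under trimmed-mean scaling. Of its 4 transcripts the first took 71.7% to 79.1% of the gene's CPM, and the fourth had 2.8, 52.4, 86.6 and 50.5 estimated reads. RefSeq places other genes over parts of Gclm, Txnrd1, Gsr and Prdx1, none of which had an entry here, and no source used here gives the strand of reads.

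The second question was whether these mRNAs held a larger share of the Caprin-1 precipitate than of the IgG precipitate of the same cells. No member was past 2-fold in either cell line. Of all genes compared, 1.69% were higher and 13% lower past 2-fold in shSCR cells, and 0.934% and 8.02% in shCerS4 cells. Under trimmed-mean scaling the balance of 174 against 1337 genes became 426 against 941, and that of 96 against 825 became 225 against 552. Within 2-fold, Nqo1, Hmox1, Gsr and Prdx1 had Caprin-1 over IgG log2 ratios of 0.43 to 0.67 in both cell lines, while those of Gclc and Txnrd1 were between −0.55 and −0.19. The median of the members was 0.12 in shSCR and 0.42 in shCerS4 cells, beside −0.13 and −0.11 for all genes. Scaling used the total of each library and no measure of RNA yield, so a ratio is relative to the other genes.

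The interval lay above 0 for 6 members and below 0 for 3 in shSCR cells, and above 0 for 7 and below 0 for 2 in shCerS4 cells. Over all genes the shares were 34.2% above and 48.9% below in shSCR, and 32.6% and 47.2% in shCerS4 cells. Nqo1 stood highest in shSCR cells at 0.67 [0.52, 0.83], with 0.43 [0.17, 0.70] in shCerS4 cells. Gsr stood at 0.57 [0.53, 0.62] and 0.59 [0.53, 0.64], Prdx1 at 0.52 [0.48, 0.57] and 0.53 [0.48, 0.59], and Hmox1 at 0.55 [0.32, 0.79] and 0.46 [0.33, 0.59]. These are ratios of 1.35-fold to 1.59-fold, and the intervals of each gene overlapped between the cell lines.

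On the other side, the shSCR and shCerS4 ratios of Gclc were −0.55 [−0.69, −0.42] and −0.21 [−0.35, −0.07], those of Txnrd1 were −0.30 [−0.36, −0.25] and −0.19 [−0.24, −0.14], and those of Srxn1 were −0.28 [−0.39, −0.16] and −0.08 [−0.21, 0.06], the last above 0 under trimmed-mean scaling. Under trimmed-mean scaling Gclc stood at −0.39 and −0.07, and Txnrd1 at −0.14 and −0.05. By totals, 28.8% and 43.3% of all genes compared had lower ratios than Gclc. The shares were 40.7% and 44.7% for Txnrd1 and 42.3% and 52.1% for Srxn1. Keap1 stood at 0.15 [0.08, 0.23] and 0.41 [0.33, 0.48].

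**Figure D4:**
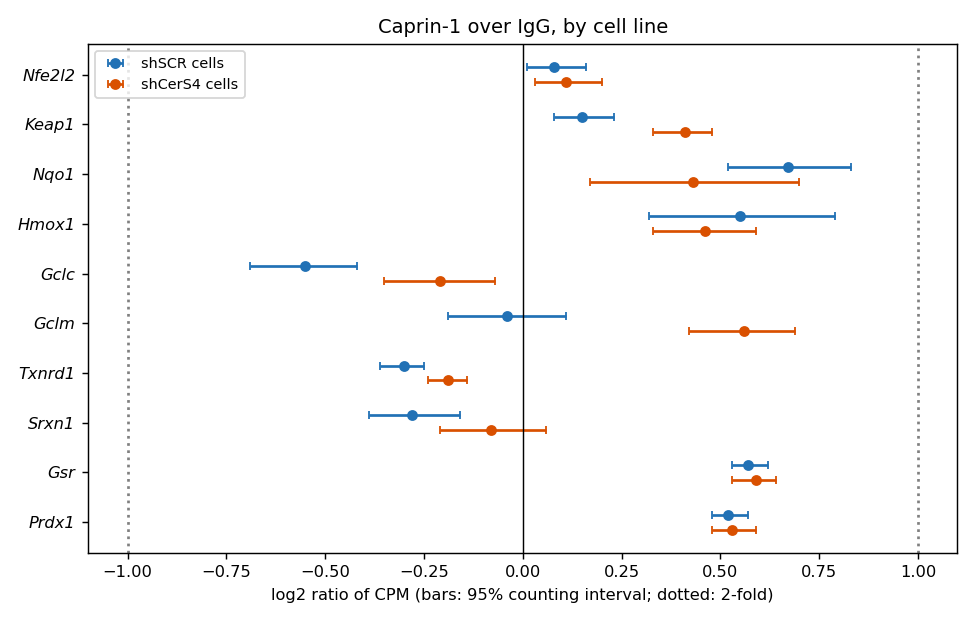
Points show the Caprin-1 over IgG log2 ratio of each gene in shSCR and in shCerS4 cells, bars the 95% counting interval, and dotted lines 2-fold. All points lie inside the lines, and Gclm is near 0 in shSCR cells at −0.04 and at 0.56 in shCerS4 cells.

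The last question was whether the Caprin-1 over IgG ratio differed between shCerS4 and shSCR cells, a value that uses all 4 libraries and shares them with the comparisons above. No member differed past 2-fold, beside 0.632% of all genes higher and 0.350% lower. Gclm had the largest difference, 0.60 [0.40, 0.79], from a ratio of −0.04 [−0.19, 0.11] in shSCR, 0.12 under trimmed-mean scaling, to 0.56 [0.42, 0.69] in shCerS4 cells, and 95.9% of genes had a lower difference. It was followed by Gclc at 0.34 [0.15, 0.53], Keap1 at 0.25, Srxn1 at 0.20 [0.02, 0.38] and Txnrd1 at 0.12 [0.04, 0.19]. Over all genes the interval lay above 0 for 29.4% and below 0 for 20.9%. For the remaining 5 members it held 0, with Nfe2l2 at 0.03 [−0.08, 0.14], Gsr and Prdx1 at 0.01 [−0.06, 0.08], Hmox1 at −0.10 [−0.36, 0.17] and Nqo1 at −0.24 [−0.54, 0.06]. The members' median was 0.07 beside 0.04 for all genes. Of the subunits of glutamate-cysteine ligase, both thus stood above 0, with the Gclc ratio itself below 0 in each cell line.

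Beyond the 10 members, 6 lists of NRF2 partners, further targets and related enzymes named 93 genes, of which 84 had values and 78 averaged 5 CPM or more. With Caprin-1, shCerS4 cells had 4 of the 78 genes higher and 4 lower past 2-fold, and the counts in the IgG precipitates were likewise 4 and 4. Under trimmed-mean scaling they were 3 and 4 with Caprin-1 and 1 and 4 with IgG. Over all 10283 genes that scaling gave 442 and 637, and 424 and 670. Over all genes the shares by totals were 6.25% and 4.95% with Caprin-1 and 5.69% and 5.34% with IgG. The list medians in the Caprin-1 precipitates ran from −0.25 for NADPH supply to 0.12 for other peroxide and thiol enzymes, beside 0.15 for all genes.

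Among 18 partners and regulators, Mafk, a small MAF partner of NRF2, stood at 27.9 CPM in shSCR Caprin-1 and 63.9 CPM in shCerS4 Caprin-1, a log2 ratio of 1.20 [1.07, 1.33], and at 1.04 with IgG. Nfe2l1, a relative of NRF2 that controls proteasome genes, stood at 438 and 924 CPM, a ratio of 1.08 [1.05, 1.11], and at 1.06 with IgG. Under trimmed-mean scaling Nfe2l1 was under 2-fold in both precipitates, at 0.94 in each, and Mafk in the IgG precipitates, at 0.92. Sqstm1, the most abundant of this list, encodes p62, which binds KEAP1, and stood at 0.39 with Caprin-1 and 0.38 with IgG. Between shCerS4 and shSCR cells, Mafk and Nfe2l1 were the only 2 of these 18 genes past 2-fold, both higher. Over all genes 6.25% were higher past 2-fold with Caprin-1 and 5.69% with IgG. With so few genes, 2 of 18 is no result about the list.

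Among 13 glutathione and conjugation genes, the transferase gene Gstm1 was lower past 2-fold, at −1.32 [−1.48, −1.16] with Caprin-1 and −1.23 with IgG, and the exporter gene Abcc3 at −1.07 [−1.19, −0.96] and −1.40, though Abcc3 was at −0.68 with Caprin-1 when its most abundant transcript alone was used. Among 7 haem and iron genes, Slc40a1, which encodes the iron exporter ferroportin, stood at 3.15 CPM in shSCR Caprin-1 and 21.3 CPM in shCerS4 Caprin-1, a ratio of 2.75 [2.43, 3.11], and at 2.75 with IgG. Ftl1, the ferritin light chain gene, was lower at −1.17 [−1.19, −1.15] with Caprin-1 and stood under 2-fold at −0.85 with IgG. RefSeq lists 2 genes named as pseudogenes of Ftl1, so its reads may be divided with error. The ferritin heavy chain gene Fth1, the most abundant of the list, stood at 0.17 and 0.53.

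Among 11 detoxification and stress genes, the aldehyde dehydrogenase gene Aldh3a1 was lower at −2.30 [−2.43, −2.16] with Caprin-1 and −2.59 with IgG. Its levels were 49.1 CPM in shSCR IgG, 104 CPM in shSCR Caprin-1, 8.13 CPM in shCerS4 IgG and 21.1 CPM in shCerS4 Caprin-1. Nqo1, Prdx1, Gstm1 and Ftl1 had the same order of libraries, which is thus not particular to Aldh3a1 and Nqo1. Trp53inp1 was higher at 1.46 [1.31, 1.62] and 1.04, the latter 0.92 under trimmed-mean scaling and 0.49 with its most abundant transcript alone, and the aldehyde oxidase gene Aox1 passed 2-fold lower with IgG, at −1.20, and stood at −0.75 with Caprin-1. Akr1a1, the most abundant of the list, stood at 0.27 and 0.32. None of 6 NADPH supply genes was past 2-fold, with the pentose phosphate gene Tkt, the most abundant, at −0.49 and −0.43. None of 23 other peroxide and thiol enzymes was either, with Prdx2 at 0.39 and 0.43.

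Against IgG, 3 of the 78 genes held a share more than 2-fold larger with Caprin-1 and 6 a share more than 2-fold smaller in shSCR cells, and 1 and 4 did in shCerS4 cells. Over all genes the shares by totals were 1.69% and 13% in shSCR and 0.934% and 8.02% in shCerS4 cells. Trimmed-mean scaling gave 9 and 4 of the 78, and 6 and 4. Over all 10283 genes it gave 426 and 941, and 225 and 552. The higher genes in shSCR cells were Aldh3a1 at 1.08, the superoxide dismutase gene Sod1 at 1.07 and the transferase gene Gstp1 at 1.05, whose reads may be shared with the near-identical Gstp2, and Aldh3a1 was the 1 in shCerS4 cells, at 1.37. The kinase gene Gsk3b, at −1.80 and −1.81, the cystine carrier gene Slc7a11, at −1.54 and −1.38, and the coactivator genes Crebbp, at −1.90 and −1.55, and Ep300, at −1.14 and −1.28, were lower in both cell lines. Trp53inp1 at −1.37 and Aox1 at −1.11 were lower in shSCR cells. Under trimmed-mean scaling Ep300 and Aox1 stood at −0.97 and −0.95 in shSCR cells. The list medians in shSCR cells were 0.58 for NADPH supply, 0.53 for glutathione and conjugation, 0.48 for haem and iron, 0.40 for detoxification, 0.31 for other peroxide and thiol enzymes and −0.30 for partners and regulators, with all genes at −0.13. In the difference between cell lines none of the 78 genes was past 2-fold, beside 0.632% of all genes higher and 0.350% lower. Read against these shares, none of 78 is no result about the lists. The most abundant transcript alone gave 0 higher and 3 lower of 77, beside 278 and 174 of all 10037 genes compared. A filter of 1 CPM gave 1 higher of 80, beside 230 higher and 177 lower of 11570.

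**Figure D5:**
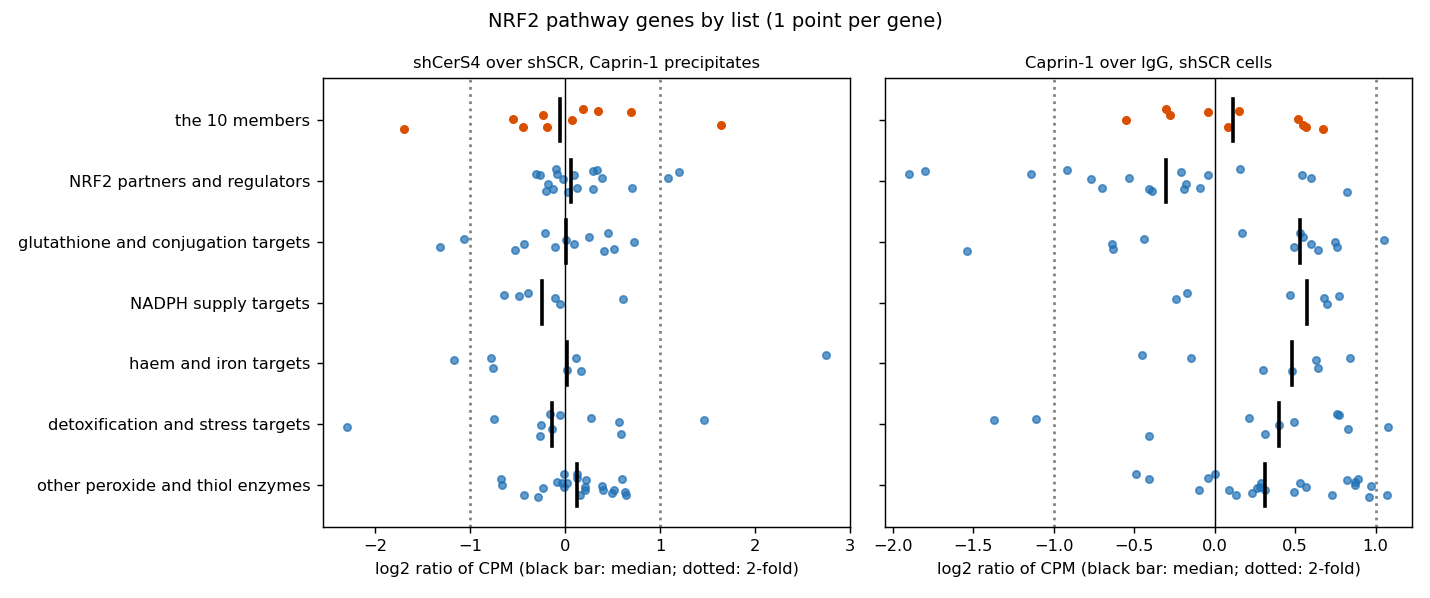
Each point is a gene of the NRF2 pathway lists or one of the 10 members, placed by its shCerS4 over shSCR log2 ratio in the Caprin-1 precipitates (left) and its Caprin-1 over IgG log2 ratio in shSCR cells (right); black bars are list medians and dotted lines 2-fold. On the right the median of partners and regulators lies at −0.30 and that of NADPH supply genes at 0.58.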

How the data were processed

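RNA recovered from 4T1 cells with anti-Caprin-1 or IgG was sequenced in 4 libraries, 1 per group. The deposited values, whose file calls them raw counts, were CPM per transcript with 0.0001 added to each, as the authors' columns show by having equal sums. Reads were aligned with STAR in Partek to mm10, per the submitters' processing notes; versions and strand were not given in the sources used here. Here the 0.0001 was subtracted, transcripts were summed per symbol, and reads were estimated from the spacing of low values, of which 79.8% to 81.2% under 40 CPM lay within 0.05 reads of a whole number.

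Log2 ratios used library totals with 0.5 reads added, and intervals were exact (Clopper-Pearson) 95% counting intervals, or a normal approximation for the difference of ratios. Reads carried no molecular barcodes, so intervals cover counting error only. With 1 library per group no test was made. The members, lists, thresholds and neighbour rule were chosen with earlier results of these data known. The rule named all members and, from each wider list, the most abundant gene and up to 5 genes past 2-fold per comparison; neighbours used log2(CPM + 0.1) and left out predicted genes. Of 12967 symbols, 12957 matched RefSeq. Scripts (Python 3.11.15, scipy 1.17.1) were tested on simulated counts. Alternatives were 4 other scalings, 3 filters, 5 added reads, the most abundant transcript and no interval.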

Additional observations from a re-analysis of the deposited data

How the results depend on the processing

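Nqo1 and Hmox1 were past 2-fold in shCerS4 over shSCR, and no member was in the other 3 comparisons, under each of the alternatives run. Library totals set the zero of each ratio: under trimmed-mean scaling the median of all genes moved from 0.15 to 0 (shCerS4 over shSCR, Caprin-1), from 0.10 to −0.01 (IgG), from −0.13 to 0.03 (Caprin-1 over IgG, shSCR) and from −0.11 to 0.03 (shCerS4). The members' median moved to −0.20 (trimmed mean), −0.19 (median ratio) and −0.17 (upper quartile) for the Caprin-1 precipitates, and to −0.37 under the first for IgG. For Caprin-1 over IgG it moved to 0.28, 0.29 and 0.30 in shSCR cells, to 0.30 there with the most abundant transcript alone, and to 0.56, 0.56 and 0.57 in shCerS4 cells. For the difference of ratios, past 2-fold were 65 genes higher and 36 lower, 230 and 177 with a filter of 1 CPM, 457 and 311 with none, 8 and 3 with one of 20 CPM, and 278 and 174 with the most abundant transcript alone. Of 450 member ratios recomputed, 354 stayed within their interval, 96 left it and 23 changed sign, none of these past 2-fold. The 354 include all ratios under the 3 filters, which cannot change a member's ratio, so the count overstates stability. The cause of these changes was not tested. No paired analysis was possible because each group was 1 library.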
